A study of Homo sapiens with 4 samples.

Results

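Aminoacyl-tRNA synthetases, the enzymes that load each tRNA with its amino acid, were followed in K562 cells with and without the fusion gene RUNX1::ERG. The 35 synthetase genes were taken by symbol from the 25702 genes of the count tables, and comprised 19 genes for cytosolic enzymes and 16 for mitochondrial enzymes, whose symbols end in 2. K562 is an established cell line from a human chronic myeloid leukemia. Cells of this line, otherwise untreated, were transfected with the LeGO-iG2 plasmid carrying RUNX1::ERG or with the same plasmid without insert (the empty vector). RNA-seq of poly(A)-enriched RNA was available for 2 libraries of each group. Transfection is transient, so a library may mix cells with and without the plasmid, and in such bulk RNA a change in the share of cells cannot be told apart from a change in RNA per cell. The study describes the replicates as biological, and neither it nor the labels say whether they came from separate cultures, so p-values measure the spread between these libraries.

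Cytosolic synthetases charge tRNAs for translation on cytosolic ribosomes, while the mitochondrial enzymes, encoded by separate nuclear genes, serve the few proteins made inside mitochondria. GARS1 and KARS1 encode both forms from one gene, and no separate mitochondrial glutaminyl-tRNA synthetase exists. Several cytosolic enzymes (EPRS1, IARS1, LARS1, MARS1, QARS1, RARS1 and KARS1) sit together with the scaffold proteins AIMP1, AIMP2 and EEF1E1 in the multisynthetase complex. When amino acids run short or the endoplasmic reticulum is stressed, kinases phosphorylate eIF2alpha, translation of the transcription factor ATF4 rises, and ATF4 activates genes of amino acid synthesis and transport together with many cytosolic synthetase genes.

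ATF4 acts on C/EBP-ATF response elements, whose core was searched for here as TGATGNAA, on both strands, in RefSeq promoter windows of GRCh38.p14 that run from 250 bases before to 50 bases after each gene start. The motif was present in 7 of the 16 cytosolic genes with a window (43.8%), in 1 of 14 mitochondrial genes (7.14%), in 4.46% of all 27305 genes with a window and in 2.8% of the 11379 that passed the filter on low counts. A match describes the letters in the window and is not shown to be a bound site. The matches of the cytosolic genes are shown because the libraries are later compared with them. Each is read 5′ to 3′ on the strand that carries TGATGNAA, with the motif in capitals.
AARS1, chr16:70289675-70289704, + strand: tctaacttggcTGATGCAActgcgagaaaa
CARS1, chr11:3057407-3057436, + strand: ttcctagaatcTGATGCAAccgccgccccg
MARS1, chr12:57488053-57488082, - strand: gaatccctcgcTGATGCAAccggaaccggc
GARS1, chr7:30594834-30594863, - strand: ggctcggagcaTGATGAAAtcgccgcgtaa
NARS1, chr18:57621804-57621833, - strand: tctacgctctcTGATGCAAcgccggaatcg
TARS1, chr5:33440956-33440985, - strand: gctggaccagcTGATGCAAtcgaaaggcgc
IARS1, chr9:92293692-92293721, + strand: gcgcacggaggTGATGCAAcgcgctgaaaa
Counted on the strand of the gene, the motif of AARS1 began 187 bases before the start, whereas those of GARS1, IARS1, MARS1 and CARS1 began 33, 13, 4 and 2 bases before it. Those of TARS1 and NARS1 began 3 and 15 bases after it. In 6 of the 7 genes the letters were TGATGCAA, and in GARS1 they were TGATGAAA. The 1 mitochondrial match, in YARS2, began 197 bases before the start and read TGATGGAA.
YARS2, chr12:32756076-32756105, - strand: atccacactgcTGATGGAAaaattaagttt
The 250 bases before the start of AARS1 (alanine) and of HARS1 (histidine) are given on the strand of the gene as an example with the motif, here read as its reverse complement in capitals, and one without it.
AARS1, chr16:70289507-70289756, - strand: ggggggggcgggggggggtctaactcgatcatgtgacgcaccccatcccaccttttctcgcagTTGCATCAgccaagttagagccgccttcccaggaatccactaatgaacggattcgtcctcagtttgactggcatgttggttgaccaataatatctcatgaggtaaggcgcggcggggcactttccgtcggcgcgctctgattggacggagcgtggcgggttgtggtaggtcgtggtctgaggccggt
HARS1, chr5:140691371-140691620, - strand: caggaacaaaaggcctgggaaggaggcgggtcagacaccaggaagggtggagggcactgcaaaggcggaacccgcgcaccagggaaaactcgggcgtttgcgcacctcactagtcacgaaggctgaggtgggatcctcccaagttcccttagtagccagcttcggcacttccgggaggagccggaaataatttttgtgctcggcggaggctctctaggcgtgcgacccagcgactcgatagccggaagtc
WARS1, SARS1, EPRS1, FARSA, FARSB, KARS1, QARS1 and RARS1 held no match either, and VARS1, LARS1, YARS1, AARS2 and VARS2 had no window.

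The labels were checked first. ERG was nearly absent with the empty vector, at 4 counts a library, and reached 80443 and 27218 counts with the fusion. RUNX1 was at 78.6 and 49.0 normalized CPM (counts scaled to a common library size) against 786 and 400. Library totals ran from 59695387 to 82352144 counts. All 35 synthetase genes passed the filter on low counts, which kept 15394 genes. Apart from VARS1 and VARS2, the synthetase counts lay between 952 and 44670 in a library. Hemoglobin and erythroid markers of K562 were abundant, with HBE1 at 6394 to 8412 normalized CPM and GATA1 at 256 to 302. MS4A1 of B cells had no count, while the monocyte gene CD14 rose from 0.183 and 0.425 to 3.86 and 1.99 normalized CPM with RUNX1::ERG. LYZ and COL1A1 were also called higher, so that 3 of the 8 tested markers of other cell types were, against 3.64% of all tested genes. MS4A1 and ELANE were under the filter. CD3D (32.5 and 34.7 against 20.5 and 23.6) and EPCAM (75.4 and 81.2 against 55.5 and 58.2), which make up most of the summed level, had groups that did not overlap and were not called. Summed over the 10 markers, the normalized CPM was 122 and 131 with the empty vector and 122 and 123 with RUNX1::ERG. Their part in the synthetase values was not tested.

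Cytosolic synthetases were the more abundant transcripts. Per kilobase of the reference transcript, the mean normalized CPM over the 4 libraries had a median of 97.8 for the 19 cytosolic genes and 15.4 for the 16 mitochondrial genes. On this per-length scale SARS1 (serine), FARSA (the alpha subunit of the phenylalanine enzyme) and TARS1 (threonine) were highest, at 172, 171 and 155. Without the valine genes the cytosolic range was 18.1, for FARSB, to 172, and the mitochondrial range 6.57, for PARS2, to 68.5, for IARS2. SARS2 and TARS2 followed IARS2 at 24.6 and 22.5. In all, 5 of the 15 mitochondrial genes lay above the lowest cytosolic gene.

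**Figure D1:**
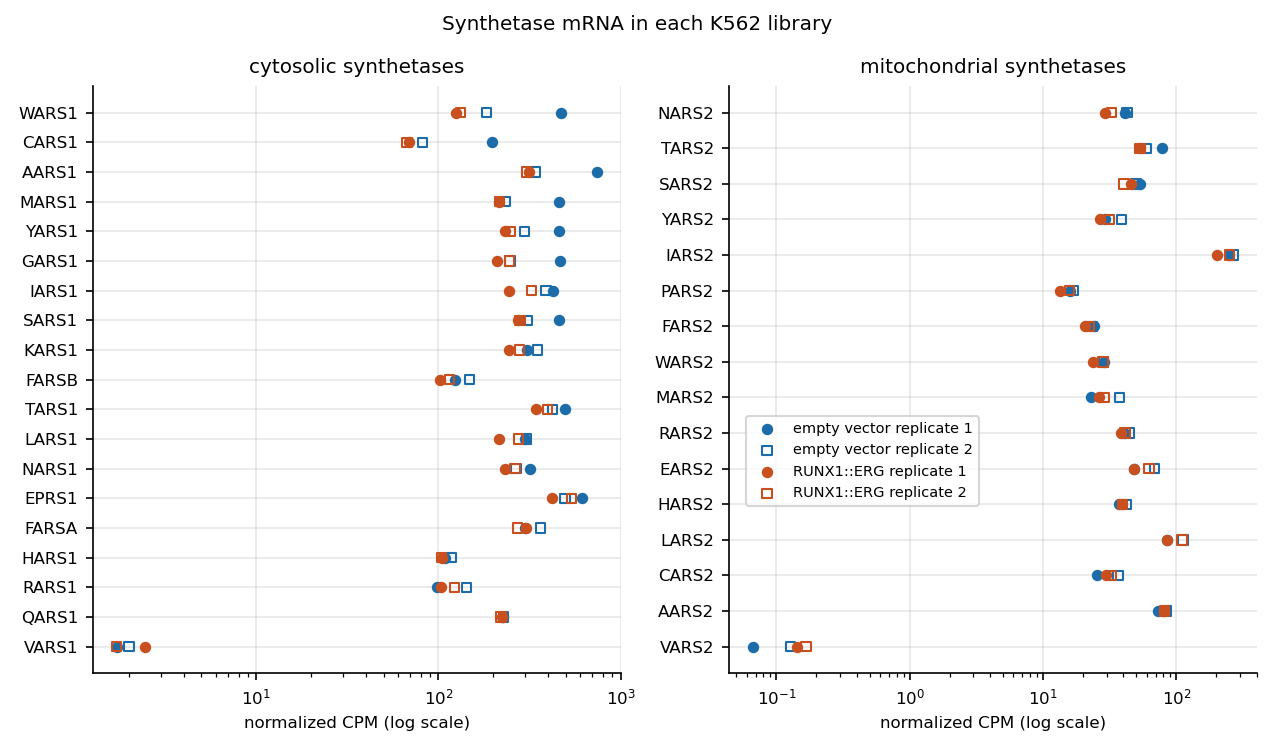
Normalized CPM (log axis) of each cytosolic and mitochondrial synthetase gene in the 4 libraries, with circles for replicate 1 and squares for replicate 2. Empty vector replicate 1 stands to the right of the other libraries for WARS1 (468 against at most 183) and AARS1 (742 against at most 341), and the valine genes VARS1 and VARS2 lie at the far left.

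VARS1 and VARS2 need a separate remark. VARS1 was at 1.71 and 2.00 normalized CPM in the empty vector libraries and at 2.44 and 1.71 with RUNX1::ERG. VARS2 had 4, 9, 12 and 12 counts. Both lie in the gene-dense region of chromosome 6 from 30881982 to 31763529 (GRCh37). None of the 45 protein-coding genes in it had a mean above 3 CPM, against 46.5% of the 929 other protein-coding genes of that chromosome. The low values therefore extend over the whole region in these tables, the cause was not tested, and the levels of the valine genes are uncertain.

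With RUNX1::ERG, cytosolic synthetase genes had lower fitted values than with the empty vector, and mitochondrial genes did so by less. The log2 fold change (RUNX1::ERG over empty vector) was below 0 in 18 of 19 cytosolic genes, with a median of -0.32 and a range from -1.34 for WARS1 to 0.16 for VARS1. Of the 16 mitochondrial genes 13 were below 0, with a median of -0.13 and a range from -0.44 for NARS2 to 0.64 for VARS2. The median over all tested genes was -0.0017. By the edgeR quasi-likelihood F test with Benjamini-Hochberg adjustment over all tested genes, 1 cytosolic gene, WARS1, was called lower and none higher, against a background of 1.15% of genes called lower and 4.79% called in either direction. No mitochondrial gene was called by this test. At an unadjusted p under 0.05 in the edgeR test the numbers were 8 cytosolic genes and 1 mitochondrial gene, all lower. Of all 15394 tested genes, 1118 were lower and 1649 higher at this mark. The DESeq2 Wald test also called no mitochondrial gene. The groups were fully apart, with RUNX1::ERG lower, in 15 cytosolic and 5 mitochondrial genes, where 22.1% of all tested genes had this order. The reverse order was found in VARS2 alone among the 35, against 25.1% of all tested genes.

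WARS1, the tryptophanyl-tRNA synthetase (NCBI gene 7453, minus strand of chromosome 14 from 100800127 to 100843142 in GRCh37), had the largest difference. It was at 468 and 183 normalized CPM in empty vector replicates 1 and 2, and at 125 and 132 in RUNX1::ERG replicates 1 and 2. The groups did not overlap, but the empty vector libraries were 2.56-fold apart while the RUNX1::ERG libraries were close together. The means were 326 ± 202 (SD, n = 2) and 129 ± 4.99 (SD, n = 2). WARS1 fell by 1.34 on the log2 scale (standard error 0.33, adjusted p = 0.045 by the edgeR quasi-likelihood F test with Benjamini-Hochberg adjustment). Without empty vector replicate 1 the log2 fold change was -0.51 and the call was lost (adjusted p = 0.149 in the same edgeR test), and without empty vector replicate 2 it was -1.86. The call was also lost, at log2 fold changes close to the first, without RUNX1::ERG replicate 1 (-1.30, adjusted p = 0.096 in the same edgeR test) and with scaling by library totals (-1.31). The same held for limma voom (-1.18) and the DESeq2 Wald test (-1.34, adjusted p = 0.22). WARS1 is also known to respond to interferon. Among 12 interferon response genes, 8 passed the filter and 1, IFI6, was called higher, against 3.64% of all tested genes. IFI6 rose from 2.14 and 2.11 to 10.3 and 6.29 normalized CPM. Over the 8 genes the median log2 fold change was 0.32. In 4 of them both RUNX1::ERG libraries lay above both empty vector libraries, as in 25.1% of all tested genes. Whether interferon plays a part in the WARS1 values was not tested. IRF1 had a log2 fold change of 0.19.

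Other cytosolic genes had the same shape, a high value in empty vector replicate 1 and similar values in the other 3 libraries. CARS1 (cysteine, chromosome 11 from 3022152 to 3078843) was at 197 normalized CPM in empty vector replicate 1 and at 81.4, 69.1 and 67.1 in empty vector replicate 2 and RUNX1::ERG replicates 1 and 2. AARS1 (chromosome 16 from 70285886 to 70323610) was at 742 in the first and at 341, 314 and 305 in the other 3. MARS1 (methionine) was at 459 against 233, 214 and 216, in the same order. Each of these genes had its highest value in empty vector replicate 1, and the 3 other libraries lay close together. GARS1 (glycine) was at 463, 247, 210 and 245 normalized CPM, with RUNX1::ERG replicate 2 just under empty vector replicate 2. YARS1 (tyrosine) was at 462, 296, 231 and 247. SARS1 was at 458, 307, 273 and 280. For none of these 6 genes did the groups overlap, with RUNX1::ERG lower in each, against 22.1% of all tested genes with this order. Their log2 fold changes were -1.03 for CARS1, -0.81 for AARS1, -0.69 for MARS1, -0.66 for YARS1, -0.64 for GARS1 and -0.47 for SARS1. Their adjusted p-values in the edgeR quasi-likelihood F test ran from 0.094 for YARS1 to 0.221 for SARS1, so none passed the threshold of 0.05. Without empty vector replicate 1 the log2 fold changes shrank to between -0.12 and -0.31. Because these genes were grouped by their high value in that library, a shrinkage follows from the grouping.

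**Figure D2:**
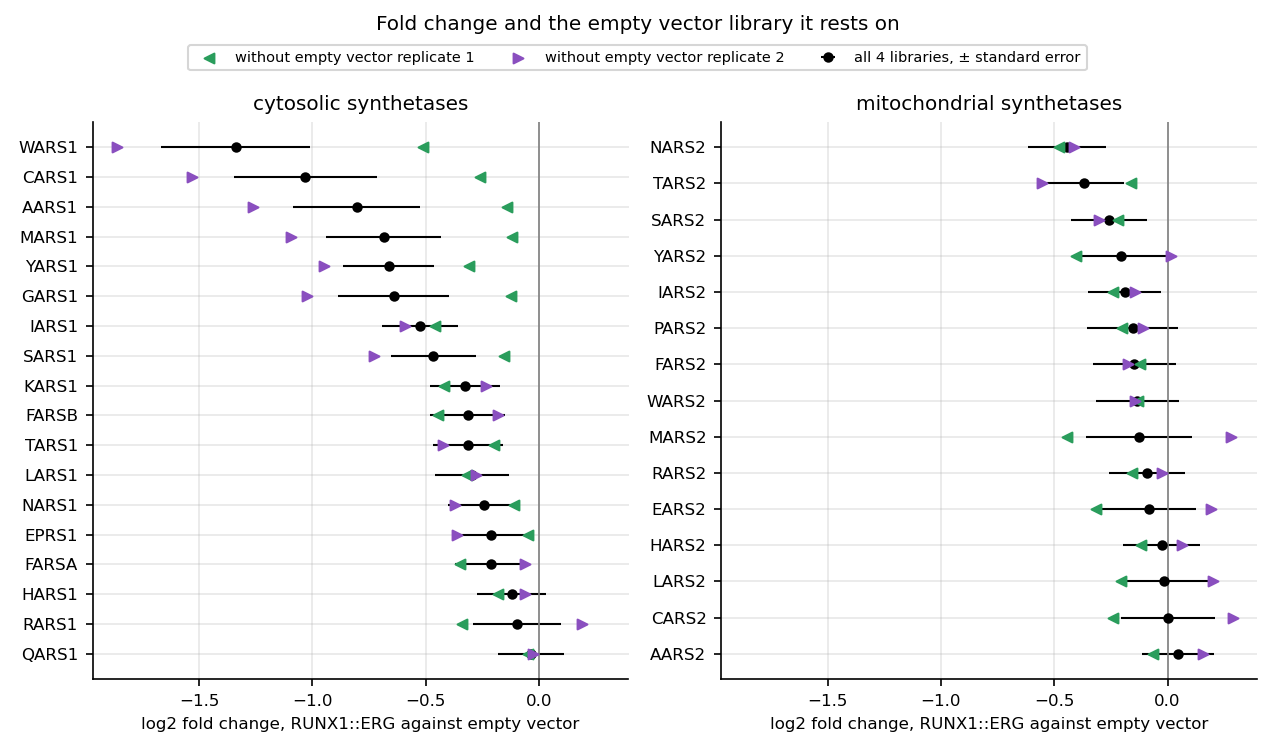
Log2 fold change of each synthetase gene except VARS1 and VARS2, RUNX1::ERG over empty vector. Points with bars of 1 standard error are from all 4 libraries. Left-pointing triangles are without empty vector replicate 1, and right-pointing triangles without empty vector replicate 2. Without replicate 1, WARS1 moves from -1.34 to -0.51 and CARS1 from -1.03 to -0.26, while KARS1 (-0.33 and -0.42) and NARS2 (-0.44 and -0.48) stay near their first value. Without replicate 2, WARS1 is at -1.86, CARS1 at -1.53, KARS1 at -0.23 and NARS2 at -0.41.

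The 2 empty vector libraries were then compared directly, with a difference of 0.5 on the log2 scale as the mark, which was chosen after the values were seen. Empty vector replicate 1 was at least 0.5 above replicate 2 in 7 of 19 cytosolic genes (36.8%) and in none of the 16 mitochondrial genes, against 18.5% of all tested genes. The 7 genes were WARS1, CARS1, AARS1, MARS1, GARS1, YARS1 and SARS1, with values in replicate 1 that were 1.49-fold to 2.56-fold those in replicate 2. The mark counts a single direction. In the other direction, replicate 1 was at least 0.5 below replicate 2 in RARS1 (-0.53) among cytosolic genes. Among mitochondrial genes the same held for VARS2 (-0.94, at few counts), MARS2 (-0.72), CARS2 (-0.53) and EARS2 (-0.51). The median difference between the libraries was 0.23 over cytosolic genes and -0.15 over mitochondrial genes. It was 0.02 over all tested genes with counts in both libraries. In 11 cytosolic and 4 mitochondrial genes empty vector replicate 1 was the highest of the 4 libraries, as it was in 26.3% of all tested genes, whereas empty vector replicate 2 was the highest in 11 mitochondrial genes. Summed over the genes, the normalized CPM of cytosolic synthetases was 6568 and 4919 in empty vector replicates 1 and 2, and 3970 and 4406 in RUNX1::ERG replicates 1 and 2. For mitochondrial synthetases the sums were 851 and 952 against 762 and 871. The cytosolic sum was thus highest in empty vector replicate 1 and the mitochondrial sum in empty vector replicate 2.

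Without empty vector replicate 1 the medians of the compartments no longer differed at 2 decimals. The median log2 fold change was -0.20 for cytosolic and -0.20 for mitochondrial genes, against 0.02 for all tested genes. In this fit 18 of 19 cytosolic and 15 of 16 mitochondrial genes were below 0, and no synthetase gene was called, where 1.91% of genes were called lower. The smallest adjusted p was 0.149 in the edgeR quasi-likelihood F test. When empty vector replicate 2 was left out instead, the medians were -0.37 and -0.01, and 8 cytosolic genes were called lower in the same edgeR test, against 3.75% of all genes. Without RUNX1::ERG replicate 1 the medians were -0.23 and -0.04 with no call, and without RUNX1::ERG replicate 2 they were -0.44 and -0.22 with 2 cytosolic genes called lower, against 0.368% and 1.18% of all genes called lower. Each of these fits leaves a group with 1 library, which is assumed to vary like the other group.

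The remaining 11 cytosolic genes apart from VARS1 are those under the mark of 0.5, so a smaller excess in empty vector replicate 1 follows from that choice. In them replicate 1 differed from replicate 2 by -0.53, for RARS1, to 0.32 on the log2 scale. The log2 fold changes ran from -0.52 to -0.04 with all libraries and from -0.46 to -0.05 without empty vector replicate 1. Some of these genes still moved when that library was left out, EPRS1 from -0.21 to -0.05 and NARS1 from -0.24 to -0.11, and in the other direction RARS1 from -0.10 to -0.34 and FARSA from -0.21 to -0.35. In 8 of the 11 the groups did not overlap, with RUNX1::ERG lower, against 22.1% of all tested genes with this order. IARS1, which charges isoleucine tRNA (chromosome 9 from 94972489 to 95056136), was at 427 and 390 normalized CPM in the empty vector libraries and at 245 and 323 with RUNX1::ERG. The fitted log2 fold change was -0.52 with a standard error of 0.17 (adjusted p = 0.113 by the edgeR quasi-likelihood F test), and it ran from -0.75 to -0.34 with each library left out. Both empty vector values lay above both RUNX1::ERG values, which differed from each other by more than the empty vector values did. KARS1 (lysine) was at 307 and 349 against 244 and 279, and FARSB, the beta subunit of the phenylalanine enzyme, at 123 and 148 against 102 and 115. In both genes the groups were apart, with log2 fold changes of -0.33 and -0.32, and neither gene passed the test. TARS1 was at 494 and 422 against 341 and 396 (-0.31), and LARS1 (leucine) at 298 and 305 against 215 and 276 (-0.30). NARS1 (asparagine) was at 320 and 266 normalized CPM against 232 and 263, with a log2 fold change of -0.24. HARS1 was at 109 and 118 against 105 and 104, with a log2 fold change of -0.12. QARS1, for glutamine, was nearly level, at 226 and 228 against 223 and 220. EPRS1, whose single protein charges both glutamate and proline tRNAs, was at 617 and 496 against 420 and 539, and RARS1 (arginine) at 98.6 and 142 against 103 and 122. Both overlapped between groups, with log2 fold changes of -0.21 and -0.10. FARSA overlapped as well, at 299 and 365 against 301 and 272 normalized CPM, unlike its partner subunit FARSB. Where FARSA and FARSB were lower in empty vector replicate 1 than in replicate 2, WARS1 and CARS1 were higher.

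Membership in the multisynthetase complex divided the cytosolic genes in the comparison of the empty vector libraries. For the 7 complex genes the median log2 difference between empty vector replicates 1 and 2 was -0.02, with 1 gene, MARS1, at or above 0.5. Outside the complex the median was 0.42 over 12 genes, with 6 at or above 0.5. The median log2 fold changes with RUNX1::ERG were -0.30 and -0.39, which lie closer to each other. By catalytic fold, the median was -0.52 for 9 class I genes and -0.32 for 9 class II genes, with EPRS1, which holds one enzyme of each class, left out. No test was made between these groups of genes.

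Among the mitochondrial genes the values were closer together. NARS2 (mitochondrial asparagine enzyme, NCBI gene 79731, chromosome 11 from 78146666 to 78286239) was at 40.9 and 42.7 normalized CPM in the empty vector libraries and at 29.0 and 32.5 with RUNX1::ERG. The replicates of each group lay close together and the groups did not overlap. The fitted log2 fold change was -0.44 with a standard error of 0.17 (adjusted p = 0.201 by the edgeR quasi-likelihood F test), with -0.54 to -0.36 when each library was left out. TARS2 was at 78.6 and 59.7 against 53.7 and 53.3, a log2 fold change of -0.37 that was -0.16 without empty vector replicate 1. SARS2 was at 53.0 and 49.96 against 45.7 and 40.4, with no overlap and a log2 fold change of -0.26. YARS2, the 1 mitochondrial gene with the motif, was at 29.0 and 38.6 against 26.9 and 31.6. Its groups overlapped, and empty vector replicate 1 lay below replicate 2. IARS2, the most abundant of them per length, was at 249 and 266 against 201 and 251, so that RUNX1::ERG replicate 2 lay just above empty vector replicate 1.

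The remaining mitochondrial genes, apart from VARS2, had log2 fold changes from -0.15 for PARS2 to 0.04 for AARS2. FARS2 and WARS2 had groups that did not overlap, at -0.15 and -0.13. For EARS2, HARS2, LARS2, MARS2, RARS2, CARS2, PARS2 and AARS2 the groups overlapped. EARS2 (mitochondrial glutamate enzyme) was at 48.4 and 68.7 normalized CPM in the empty vector libraries and 48.2 and 62.4 with RUNX1::ERG. MARS2 was at 22.8 and 37.6 against 26.4 and 29.0, and CARS2 at 25.3 and 36.4 against 29.4 and 32.4. In these 3 genes empty vector replicate 2 was the highest library. AARS2 was at 72.4 and 84.4 against 80.4 and 81.3, so the ratio of AARS1 to AARS2 differs between libraries mainly through AARS1. LARS2 was nearly equal between the groups within each replicate number, at 85.0 and 112 normalized CPM in the empty vector libraries and 85.4 and 110 with RUNX1::ERG. In 14 of 16 mitochondrial genes RUNX1::ERG replicate 1 was below replicate 2, and the same held for 13 of 19 cytosolic genes. HARS1 and HARS2 lie head to head on chromosome 5 and overlap by 108 bases in GRCh37, and the strand setting of the counting was not stated, so reads in the overlap could not be assigned to one gene with certainty. The same limit holds for other opposite-strand genes named here. On chromosome 12 MARS1 ends at 57911352 and DDIT3 begins at 57910371. On chromosome 7 AIMP2 ends at 6063465 and EIF2AK1 begins at 6061878.

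Dividing each cytosolic gene by the mitochondrial gene for the same amino acid removes the scaling of the library. Of 16 such ratios, with the valine pair left out, 11 were highest in empty vector replicate 1, 3 in empty vector replicate 2 and 2 in a RUNX1::ERG library. AARS1 over AARS2 was 10.2 in empty vector replicate 1 and 4.04, 3.91 and 3.75 in empty vector replicate 2 and RUNX1::ERG replicates 1 and 2. CARS1 over CARS2 was 7.78 against 2.23, 2.35 and 2.07. WARS1 over WARS2 was 16.3 against 6.46, 5.26 and 4.70. In the first 2 pairs empty vector replicate 2 was close to the RUNX1::ERG libraries, and in the tryptophan pair it lay between them and empty vector replicate 1. Over the 16 ratios the median log2 difference was 0.39 between the empty vector libraries and 0.05 between empty vector replicate 2 and the mean of the RUNX1::ERG libraries. In 5 ratios both RUNX1::ERG libraries were below both empty vector libraries, and no share over other gene pairs was computed beside this count. The 16 ratios are not separate, since EPRS1 enters with both EARS2 and PARS2, and FARS2 with both FARSA and FARSB. With 2 libraries against 2, an exact permutation test of a single ratio could not go below p = 0.333.

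**Figure D3:**
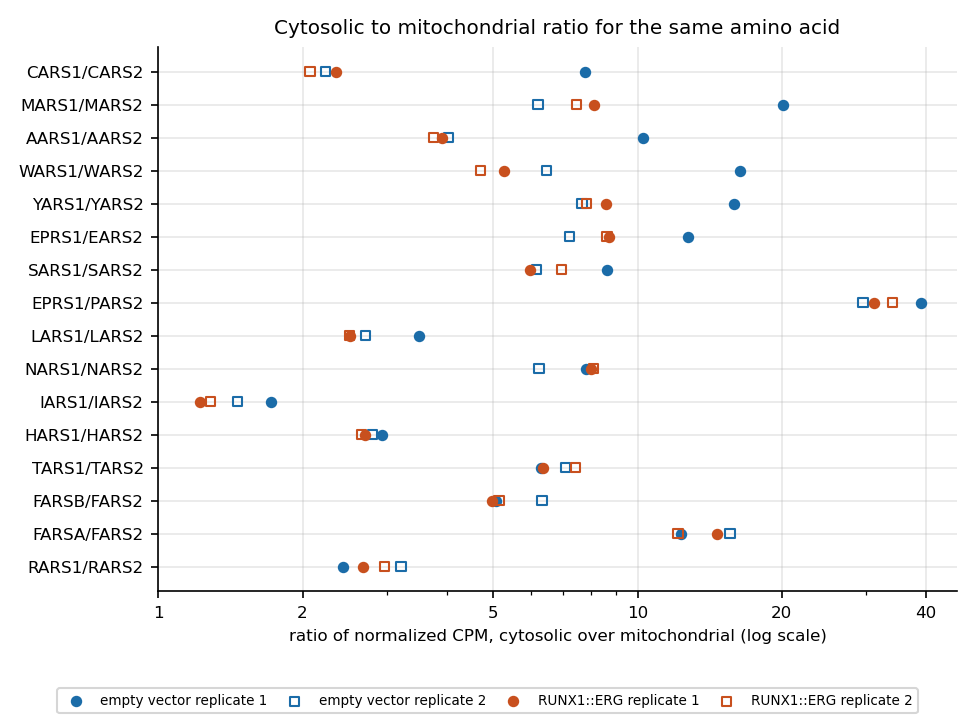
Ratio of normalized CPM of each cytosolic gene to the mitochondrial gene for the same amino acid (log axis) in the 4 libraries, 16 ratios over the amino acids with both genes except valine. Empty vector replicate 1 is the highest of the 4 in 11 ratios, as for CARS1 over CARS2 (7.78 against 2.07 to 2.35).

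The ATF4 pathway beyond the synthetases was also highest in empty vector replicate 1, in 31 of its 32 tested genes, against 26.3% of all tested genes. Its genes were listed with earlier results of these data known. Of 33 other genes of this pathway, 32 passed the filter, and by the edgeR quasi-likelihood F test with Benjamini-Hochberg adjustment 8 were called lower with RUNX1::ERG and none higher, against 1.15% of genes called lower. Both groups of libraries were apart in 20 genes, with RUNX1::ERG lower, where 22.1% of all tested genes had this order. Empty vector replicate 1 was above replicate 2 in all 32. It was so by at least 0.5 on the log2 scale in 31, against 18.5% of all tested genes. The median difference was 1.72, with a range from 0.35 to 3.81. The median log2 fold change of the list was -1.18 with all libraries and -0.31 without empty vector replicate 1, when 4 genes were called lower and 1, GDF15, higher, against 1.91% and 5.77% of all genes in that fit. ATF4 itself was at 443 and 252 normalized CPM in the empty vector libraries and at 258 and 234 with RUNX1::ERG, so the groups overlapped (log2 fold change -0.50). ASNS, the asparagine synthetase, was at 400 and 97.2 against 69.0 and 76.4, and the pseudokinase TRIB3 at 327 and 84.3 against 88.3 and 75.9. The stress factors DDIT3 (92.2 and 27.7 against 34.2 and 24.9) and ATF3 (60.1 and 13.3 against 19.6 and 11.9) overlapped between groups, and without empty vector replicate 1 their log2 fold changes were 0.09 and 0.24. None of these 5 genes passed the test. XPOT, the exporter of tRNA from the nucleus, was at 319 and 250 against 149 and 207, with a log2 fold change of -0.68 and of -0.50 without empty vector replicate 1. The largest falls past the threshold were those of INHBE, STC2 and PSAT1, at -3.13, -2.42 and -2.23, and all 3 shrank without empty vector replicate 1. INHBE, a secreted inhibin subunit, was at 58.6 and 5.28 normalized CPM against 3.52 and 3.78, and without that library it was at -0.53 and its call was lost (adjusted p = 0.394 in the edgeR quasi-likelihood F test). STC2, a secreted glycoprotein, was at 60.8 and 16.1 against 7.35 and 6.997, and PSAT1, an enzyme of serine synthesis, at 217 and 49.4 against 24.97 and 31.8. They stayed called without that library, at -1.17 and -0.80.

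**Figure D4:**
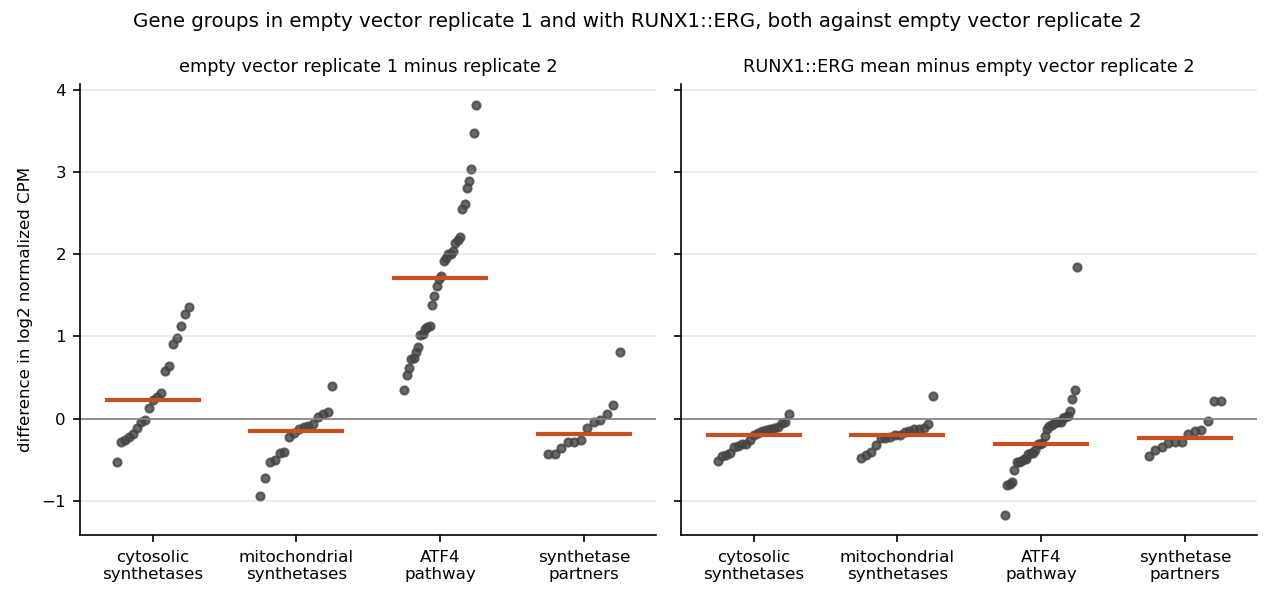
Log2 difference from empty vector replicate 2 for empty vector replicate 1 and for the mean of the RUNX1::ERG libraries, 1 point a gene, in cytosolic synthetases, mitochondrial synthetases, their partners and the ATF4 pathway, with medians as lines. Empty vector replicate 1 differs by a median of 0.23 in cytosolic, -0.15 in mitochondrial and 1.72 in ATF4 pathway genes, while the RUNX1::ERG libraries lie at -0.20, -0.20 and -0.30.

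Of the 4 eIF2alpha kinases none was called. EIF2AK3 (PERK), the sensor in the endoplasmic reticulum, was at 11.6 and 14.0 normalized CPM in the empty vector libraries and at 19.8 and 20.5 with RUNX1::ERG. Its log2 fold change was 0.66 (adjusted p = 0.098 by the edgeR quasi-likelihood F test, and 0.043 by the DESeq2 Wald test). EIF2AK4 (GCN2), which senses uncharged tRNA, was at 60.4 and 67.0 normalized CPM against 57.9 and 68.7. EIF2AK1 (293 and 274 against 277 and 304) and EIF2AK2 (22.6 and 28.4 against 23.6 and 30.4) overlapped between groups as well, and the 3 log2 fold changes lay between -0.01 and 0.08. Activity of these kinases is not measured by their transcripts. Among 12 partners of the synthetases none was called and the median log2 fold change was -0.20. The complex scaffolds AIMP1 and EEF1E1 had groups that did not overlap, at 73.0 and 75.1 against 58.4 and 64.4 and at 119 and 121 against 90.0 and 95.1 normalized CPM. AIMP2 overlapped, at 28.3 and 33.8 against 32.4 and 34.1, with a log2 fold change of 0.10. The scaffolds differed little between the empty vector libraries, unlike WARS1 or CARS1.

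The promoter motif was then set beside the empty vector libraries. Empty vector replicate 1 exceeded replicate 2 in 7 of the 7 cytosolic genes with TGATGNAA. It did so in 7983 of the tested genes with counts in both empty vector libraries, where 15394 genes were tested in all. In the 7 genes it did so by 0.13 for IARS1 to 1.27 for CARS1 on the log2 scale, with a median of 0.90. Of the 9 cytosolic genes with a window but no match it was higher in 3, with a range from -0.53 for RARS1 to 1.35 for WARS1 and a median of -0.12. WARS1 and SARS1 were thus high in that library without a match in this window. Without empty vector replicate 1 the median log2 fold change with RUNX1::ERG was -0.14 in the genes with a match and -0.34 in those without. In the ATF4 pathway list 6 of 25 genes with a window held the motif (24%), and of the 9 partners with a window none did. These shares are descriptions, and no test was made.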

How the data were processed

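RNA-seq (poly(A) enrichment) was performed on 4 K562 libraries, 2 with the empty vector and 2 with RUNX1::ERG. Per library, the authors deposited a table of raw counts by NCBI gene number, with no normalization. The submitters' processing notes name HISAT2 2.2.1, featureCounts 2.0.1 and hg19. The strand setting is not given in the sources used here. Of the counts from 1 to 10, 66.7% to 68.9% per library were even, as when both mates of a pair are counted, so independent fragments are fewer than the totals. Symbols came from RefSeq (GRCh38.p14), which matched 92.2% of the genes and all 35 synthetases. Gene positions and reference transcript lengths (MANE Select) came from GENCODE v44 on GRCh37, and promoter windows from RefSeq GRCh38.p14.

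Counts were analysed in R 4.3.3 with edgeR 4.0.16 (TMM scaling, filterByExpr, quasi-likelihood test), with Benjamini-Hochberg adjustment over 15394 genes and a threshold of 0.05. Normalized CPM is the count scaled to a common library size with the TMM factors. Standard errors were the fold change divided by the square root of F. A count of 0 allows up to 3 counts, or 0.0364 to 0.0503 CPM, for counting error only. Replicates differed by more than sampling noise (chi-square per degree of freedom 88.7 and 67.6). The procedure was tested on simulated data.

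The synthetase genes and all lists were chosen with earlier results of these data known. Per-library values are given for called genes, for the 8 cytosolic and 5 mitochondrial genes with the largest absolute fold change, for the 3 of each with the highest CPM per kilobase and for WARS1, and from the lists for ATF4, ATF3, DDIT3, ASNS, TRIB3, XPOT, the scaffolds, the kinases and the 3 largest called changes. Per-library values of other genes were added after they were seen. Alternatives were other scalings (DESeq2-style factors, library totals), filters (none, at least 10 counts), DESeq2 1.42.0, limma 3.58.1 voom, halved counts, a replicate block and leaving out each library. Medians without the valine genes were added later.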

Additional observations from a re-analysis of the deposited data

How the results depend on the processing

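Without the filter on low counts, with DESeq2 and with the replicate block, 1500, 1204 and 1733 genes were called in all, and 286 to 1336 with each library left out. The number of cytosolic synthetases called was 0 with library totals and with limma voom, 7 without the filter, 2 with DESeq2 (AARS1 and YARS1, but not WARS1) and 4 with the replicate block (CARS1, IARS1, WARS1 and YARS1), and 0 to 8 with each library left out. For the ATF4 pathway it was 3 with library totals, 30 without the filter, 2 with voom, 15 with the block and 3 to 30 with each library left out. Over all genes 618 were called with library totals and 688 with limma voom, against 737 in the main fit. The settings without the filter and with DESeq2 test more genes, so their numbers called are not on the same base. The cause of these differences was not tested. Mitochondrial synthetases had no call under any of these settings. The medians stayed within the replicate spread of 0.15 (cytosolic) and 0.12 (mitochondrial), also at -0.32 and -0.13 without the valine genes. Same-numbered libraries deviated together (r = 0.367 over 15394 genes), but nothing in the labels ties a number to a common batch, and no pairing was assumed.

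Near 0, QARS1 (0.00517), HARS2 (0.0166), LARS2 (0.0285) and EIF2AK4 (0.0323) changed sign with library totals. CARS2 changed sign with DESeq2-style factors, without the filter and with DESeq2 (-0.0126, -0.0119 and -0.0146). With each library left out, signs changed for RARS1 (-0.34 to 0.19), VARS1 (-0.12 to 0.38), AARS2 (-0.066 to 0.16), CARS2 (-0.24 to 0.29), EARS2 (-0.32 to 0.19), HARS2 (-0.12 to 0.0637), LARS2 (-0.23 to 0.20), MARS2 (-0.45 to 0.28), YARS2 (-0.40 to 0.0128), ATF3 (-1.93 to 0.24), DDIT3 (-1.64 to 0.0900), AIMP2 (-0.0262 to 0.23), EIF2AK1 (-0.0481 to 0.10), EIF2AK2 (-0.13 to 0.25) and EIF2AK4 (-0.15 to 0.11).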
